A study of Oryctolagus cuniculus with 3 samples.

Results

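Aldehyde dehydrogenases are enzymes that oxidize aldehydes to acids with NAD or NADP as the acceptor. The set described here is a list of 10 genes of that family, matched by symbol to the gene column of the tables, with the fragments of all coding sequences of a gene added up. Of these, 9 have rows among the 20536 gene names, and all 9 reached the minimum of 1 count per 1000000 (CPM) in at least 1 library that defines the 12818 measured genes. ALDH3B1 was not analysed here.

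RNA came from RCE1(5T5), an established line of rabbit corneal epithelial cells, at 3 stages of its differentiation, with 1 sequencing library per stage. Cells were non-differentiated on day 4, had committed by day 6 and were terminally differentiated by day 10. All 3 cultures were grown under the same conditions on a feeder layer of mitomycin C-treated 3T3 mouse fibroblasts, in medium with serum, insulin, transferrin, hydrocortisone, triiodothyronine, cholera toxin, adenine and epidermal growth factor, and the feeder cells were detached with EDTA before lysis. No difference below has a replicate check, so there is no test and no p-value, and stage, day and library cannot be told apart.

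In the cornea, some aldehyde dehydrogenases are so abundant that they are called corneal crystallins, and they are known to absorb ultraviolet light and to remove the aldehydes that lipid peroxidation makes; in the rabbit that role is best known for ALDH1A1. The ALDH1A enzymes also oxidize retinaldehyde to retinoic acid, a signal that epithelia need to keep a mucosal character. Other members act in metabolic routes such as proline synthesis and breakdown, valine and lysine breakdown, carnitine synthesis and the oxidation of fatty aldehydes.

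Between 10171693 and 12582706 fragments were counted per library. Of 10 corneal epithelium markers, 7 rose by at least 2-fold and 0 fell from day 4 to day 10 (median log2 difference 3.40), where 17.1% and 15.8% of all measured genes did. These are differences between stages and not a test of identity, and not all 10 genes are particular to the cornea. The risers were KRT3, KRT12, KRT13, KRT15, AQP5, PAX6 and TP63. TP63 was highest on day 6, with 55.8, 161.6 and 119.7 CPM on days 4, 6 and 10. On day 4 the corneal keratin gene KRT12 had 0 fragments and the water channel gene AQP5 had 4. KRT5, CDH1 and EPCAM had fragments in every library and changed by less than 2-fold. Of 22 fibroblast and feeder markers 19 were measured, with a summed level of 8197.6, 5048.5 and 3165 CPM on days 4, 6 and 10, and the keratocyte genes LUM and KERA had 0 fragments throughout. On day 4 the largest parts of that sum were ACTA2, with 2362 CPM, and VIM, with 1527.2 CPM. Fragments were counted on rabbit coding sequences, so mouse feeder RNA among them cannot be told apart, for these markers or for the members. Of the 19, 7 were at least 2-fold lower and 0 higher on day 6 than on day 4, 7 lower and 1 higher on day 10 than on day 6, and 16 lower and 1 higher on day 10 than on day 4. Among all measured genes the shares lower and higher were 6.73% and 8.06%, 7.1% and 8.25%, and 15.8% and 17.1%. The higher one was THY1, from 19.6 to 77 CPM, and the largest falls were those of THBS1, from 413.7 to 5.27 CPM, and COL6A2, from 282.5 to 38.1 CPM. Immune and vascular markers summed to no more than 1.99 and 2.39 CPM in any library, with CDH5 at 21 fragments on day 4 and 4 on day 10, and of 3 melanocyte markers MLANA and TYR had 0 fragments while PMEL went from 1.47 to 28.5 CPM between day 4 and day 10. The corneal and the fibroblast markers moved along with the stage differences below, and their part in those differences was not tested. In such bulk RNA, fewer cells of a type and less RNA per cell cannot be told apart.

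Levels of different genes are compared as deposited transcripts per 1000000 (TPM), which allow for length. ALDH1A1 was the most abundant member at every stage, with 138 TPM on day 4, 225.1 on day 6 and 466.7 on day 10. It ranked 1116th of all gene names by TPM on day 4, 602nd on day 6 and 336th on day 10. Its lead over the next member grew at each stage, from 1.77 times the TPM of ALDH4A1 on day 4 to 3.22 times that of the same gene on day 6 and 10.6 times that of ALDH9A1 on day 10.

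**Figure D1:**
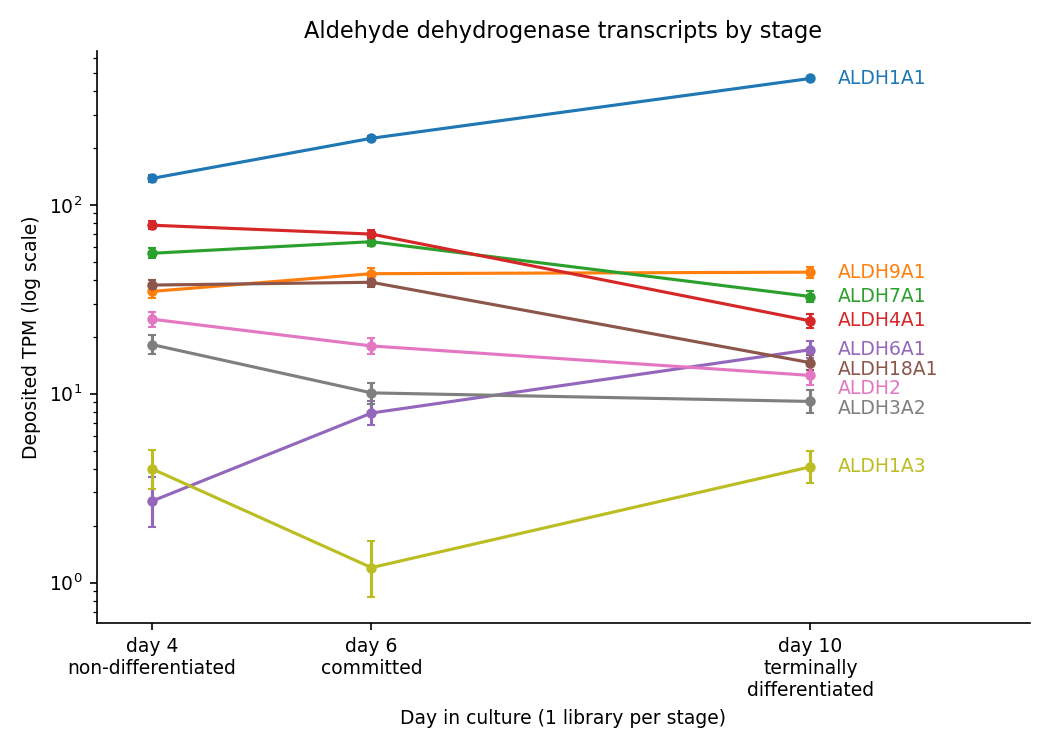
Deposited TPM (log axis) of the 9 measured members of the list against day in culture, with 1 library per stage. Bars are exact 95% Poisson intervals of the fragments and cover counting error only. ALDH1A1 lies above all other members at every stage and goes from 138 to 466.7 TPM, ALDH6A1 goes from the lowest place on day 4 (2.7 TPM) to the fifth on day 10 (17.1 TPM), and ALDH4A1 and ALDH18A1 drop after day 6.

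Below ALDH1A1 the order changed with the stage. On day 4 it ran ALDH4A1 (78 TPM), ALDH7A1 (55.4), ALDH18A1 (37.6), ALDH9A1 (34.8), ALDH2 (24.8), ALDH3A2 (18.2), ALDH1A3 (4) and ALDH6A1 (2.7). ALDH18A1 and ALDH9A1, and likewise ALDH1A3 and ALDH6A1, had overlapping counting intervals on that day. On day 6 the upper end was again ALDH4A1 (70 TPM) and ALDH7A1 (63.8), and 2 of 8 neighbouring pairs overlapped, ALDH9A1 with ALDH18A1 and ALDH3A2 with ALDH6A1. On day 10 ALDH9A1 (44 TPM) and ALDH7A1 (32.7) stood next to ALDH1A1, ALDH4A1 had moved to the fourth place with 24.3 TPM, and the pairs ALDH6A1 with ALDH18A1 and ALDH18A1 with ALDH2 overlapped.

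A single gene took a growing share of the summed transcripts of the 9 listed members. Family genes outside the list, such as ALDH16A1 with 14.4, 16 and 16.1 TPM on days 4, 6 and 10, are not in this sum. ALDH1A1 made up 35.1% of the summed TPM of the 9 members on day 4, 47.1% on day 6 and 74.7% on day 10. Together the members took 0.0394%, 0.0478% and 0.0625% of all TPM on the 3 days. Without ALDH1A1 these shares were 0.0256%, 0.0253% and 0.0158%, so that the other 8 members together were lowest on day 10. The summed CPM of those 8, scaled as described next, was 457.2, 578.6 and 343.3 on days 4, 6 and 10. The 2 scales differ between days 4 and 6, where CPM put the other members higher and TPM put them level, and both put day 10 lowest.

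**Figure D2:**
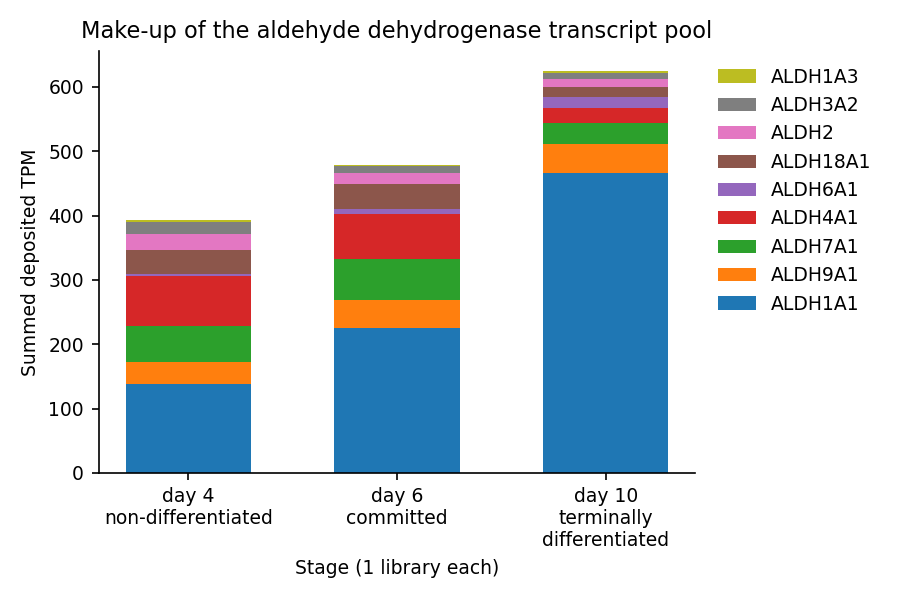
Summed deposited TPM of the 9 measured members of the list at each stage, stacked by gene, from 0, with 1 library per stage. The total goes from 393.5 to 478.1 to 625.1 TPM while the ALDH1A1 block goes from 35.1% to 74.7% of it.

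Stages are compared as CPM scaled by TMM, the trimmed mean of M values. A difference is that of log2(CPM + 1); the added 1 shrinks the change of scarce genes. Rose and fell are used for differences of 2-fold or more on that scale. Folds are ratios of CPM, and brackets give exact 95% Clopper-Pearson intervals, which cover counting error only. From day 4 to day 6, 2 of 9 members rose and 0 fell, where 8.06% of all measured genes rose and 6.73% fell. From day 6 to day 10, 3 rose and 2 fell, where 8.25% and 7.1% of all measured genes did. Over the whole interval 2 rose and 1 fell, against 17.1% and 15.8%. The member counts of either direction can be read against 14.8%, 15.4% and 32.9% of all genes: 5 of 9 members changed in the second step, and 3 of 9 over the whole interval, the latter a share near the background. The median difference of the members was 0.39, -0.13 and -0.38 in these comparisons, against 0, -0.01 and 0.01 for all measured genes. The comparisons share libraries and are not separate results.

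**Figure D3:**
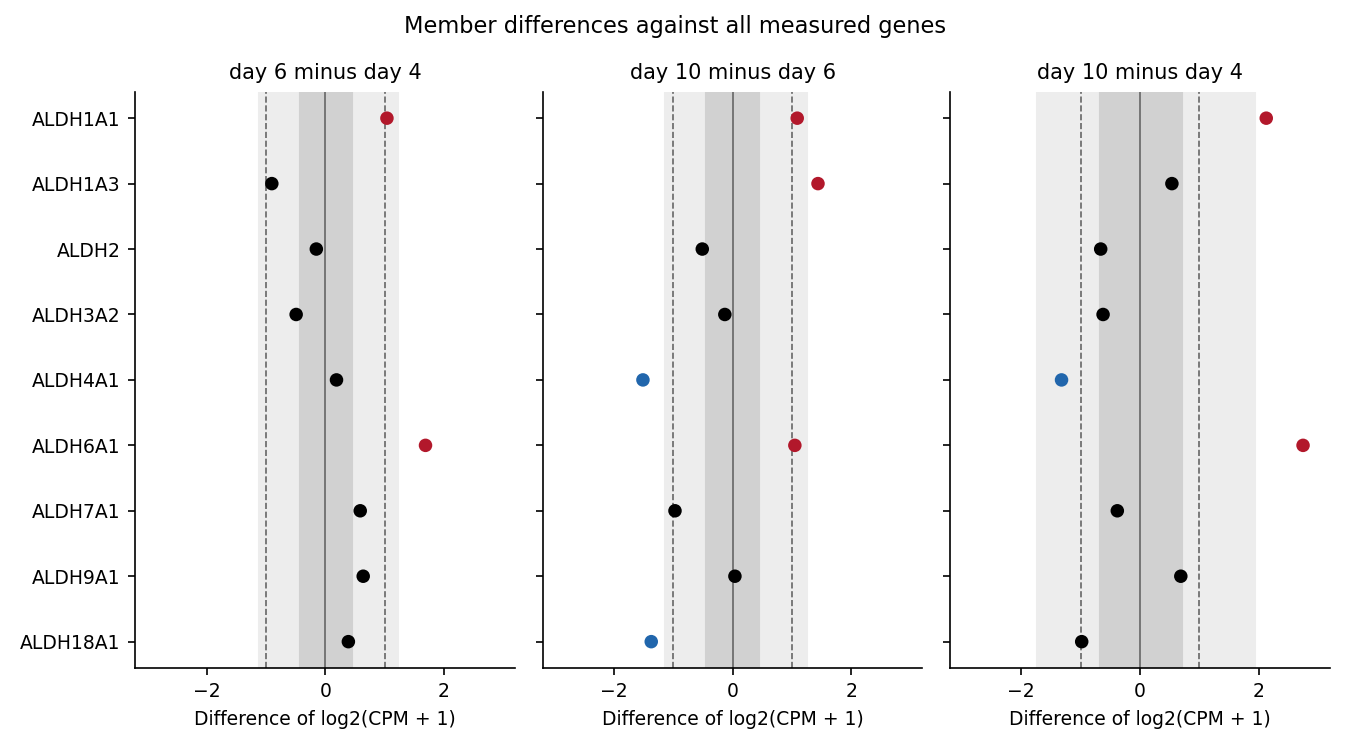
Difference of log2(CPM + 1) of each member in the 3 comparisons (later minus earlier library), with the middle 50% of all 12818 measured genes in dark grey, the middle 90% in light grey and the 2-fold lines dashed; red points rose, blue points fell and black points did neither. ALDH1A1 and ALDH6A1 lie beyond the 2-fold line on the higher side in all 3 panels, and ALDH4A1 lies beyond it on the lower side in the panels that end on day 10.

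ALDH1A1, the retinaldehyde dehydrogenase and corneal crystallin, had 191.4, 394.4 and 841.4 CPM on days 4, 6 and 10. It rose in both steps, 2.06-fold [1.96 to 2.17] to day 6 and 2.13-fold [2.06 to 2.21] from there to day 10, with counting intervals that overlap. On the log2 scale the steps were 1.04 and 1.09, and 7.37% and 6.91% of measured genes had a larger one. The first step lies close to the 2-fold line, and its call was lost without TMM (0.88) and with TPM (0.70). Those scalings moved the median of all genes to -0.14 and -0.30; relative to that median ALDH1A1 was at 1.02 and 1.00.

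ALDH1A3, another retinaldehyde dehydrogenase, was scarce and followed another course. It had 70, 36 and 104 fragments on days 4, 6 and 10, or 6.42, 2.99 and 9.80 CPM. The day 6 library was the low one. The difference to day 6 was -0.90, short of the threshold, and it passed it with a pseudocount of 0.1 (-1.08) and with read counts (-1.04). It was -1.03 without TMM and -1.18 with TPM, which is -0.89 relative to the median of all genes on either scale. From day 6 to day 10 it rose 3.28-fold [2.23 to 4.94], a call lost with a pseudocount of 5 (0.89). It lay 0.54 higher on day 10 than on day 4 on the log2 scale. That difference was 0.3 with read counts and 0.03 with TPM, the latter 0.34 relative to the median of all genes. Its fragments were split almost evenly between 2 coding sequences, 43.6% and 56.4% on day 4 and 49.5% and 50.5% on day 10. As shared fragments are divided between the 2, these are not separate values. ALDH1A2, a retinaldehyde dehydrogenase outside the list of 10, had 3.85, 8.46 and 15.8 CPM and rose 4.11-fold [2.91 to 5.90] from day 4 to day 10.

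The genes around the retinaldehyde step were read as a list of 29, of which 22 were measured. Of these 6 rose and 1 fell by day 6, 6 rose and 2 fell from day 6 to day 10, and 12 rose and 2 fell over the whole interval (median 1.11, against 0.01 for all genes). The shares of all measured genes that rose and fell were 8.06% and 6.73%, 8.25% and 7.1%, and 17.1% and 15.8%. RDH10, which makes retinaldehyde from retinol, the step before ALDH1A1, stood at 16.9 and 17.5 CPM on days 4 and 6 and then rose 3.48-fold [2.98 to 4.09], to 60.9 CPM. DHRS3, which reduces retinaldehyde back to retinol, went from 8 fragments to 42 and 102, a rise of 13.1-fold [6.40 to 31.1] from day 4 to day 10. LRAT, which stores retinol as esters, went from 3 fragments to 18 and 87. CRABP2, which carries retinoic acid to its nuclear receptors, rose 5.79-fold [3.66 to 9.56] over the whole interval. CYP26A1, which breaks retinoic acid down, had 0 fragments on days 4 and 6 and 70 on day 10. Against a floor of 3 fragments on day 4, its day 10 level was 24-fold higher. The exact interval of that comparison starts at 18.97-fold higher. The related CYP26B1 neither rose nor fell, with 57, 70 and 50 fragments. The retinoid-responsive genes RARRES1 and RARRES2 had 5 fragments or fewer on days 4 and 6 and reached 33.7 and 10.7 CPM on day 10. TGM2, of the same list, was not measured, with 3, 0 and 0 fragments. RDH11 fell 3.82-fold [2.97 to 4.97] and DHRS9 went from 44 fragments to 13 and then 0. For DHRS9 the same floor on day 10 gave a level 14.3-fold lower, and the exact interval starts at 11.1-fold lower. Both are retinol or retinaldehyde converting enzymes.

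ALDH2, the mitochondrial enzyme that clears acetaldehyde, was at 43, 38.6 and 26.8 CPM on days 4, 6 and 10, so that the day 10 library was the lowest. Neither step reached 2-fold, and over the whole interval its level was 1.60-fold lower [1.38 to 1.86], a log2 difference of -0.66. A list drawn around alcohol and aldehyde reductases and oxidases had 9 measured genes, not all of which are such enzymes or act on the same aldehydes. Of the 9, 3 rose and 1 fell from day 4 to day 10 (median 0.41). Over the same interval 17.1% of all measured genes rose and 15.8% fell. ADH1A, an alcohol dehydrogenase, went from 4 and 2 fragments to 126. AKR1B10 rose 4.52-fold [4.04 to 5.05], from 35.8 to 161.6 CPM, while AKR1B1, the aldose reductase, fell 3.06-fold [2.72 to 3.46], from 104.4 to 34.1 CPM. The third riser was ADHFE1, from 5 fragments to 54. ADH5, which acts on formaldehyde bound to glutathione, was at 79.8, 86.5 and 106.1 CPM.

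ALDH3A2, which oxidizes long-chain fatty aldehydes and is the gene of Sjögren-Larsson syndrome, was at 28.3, 19.9 and 18.1 CPM on days 4, 6 and 10. The highest value was that of day 4, and no step reached 2-fold; over the whole interval the level was 1.56-fold lower [1.30 to 1.88]. Its fragments were divided among 4 coding sequences, 27.3% to 29.3% for one and 23.6% to 24.2% for each of the others, which had equal values in each library. As shared fragments are divided among them, these are not separate values and say nothing about isoforms. A list drawn around fatty aldehydes had 9 measured genes, not all of which make such aldehydes or their precursors. Of the 9, 1 rose and 0 fell from day 4 to day 10 (median 0.30), where 17.1% and 15.8% of all measured genes did. The riser was CYP4F22, a fatty acid hydroxylase of the ceramide route to the skin barrier, from 8 fragments to 56 and 91. SGPL1, which releases a fatty aldehyde from sphingosine phosphate, was at 33.3, 28.9 and 33.2 CPM.

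ALDH4A1 and ALDH18A1 work on the same intermediate, pyrroline-5-carboxylate: ALDH18A1 makes it from glutamate for proline synthesis, and ALDH4A1 turns it into glutamate in proline breakdown. ALDH4A1 was at 136.1, 155.1 and 54 CPM and ALDH18A1 at 92.4, 121.4 and 46.3 CPM on days 4, 6 and 10. Both were highest on day 6 and lowest on day 10. From day 6 to day 10 ALDH4A1 fell 2.87-fold [2.62 to 3.16] and ALDH18A1 fell 2.62-fold [2.36 to 2.91]; only 1.61% and 2.43% of measured genes had a lower difference than these. From day 4 to day 6 the ALDH4A1 difference was 0.19 and that of ALDH18A1 was 0.39. With TPM the ALDH4A1 value was -0.15, which is 0.14 above the median of all genes on that scale. Over the whole interval ALDH4A1 fell 2.52-fold [2.29 to 2.78], while ALDH18A1 ended just inside the threshold at -0.98; its value was -1.12 without TMM and -1.31 with TPM. On those scales the median of all genes was at -0.11 and -0.31, and relative to it ALDH18A1 was at -1.0 on both, against -0.99 with TMM.

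The other genes of proline and glutamate metabolism moved in both directions. Of 16 measured genes 2 rose and 2 fell from day 6 to day 10, and 3 rose and 1 fell from day 4 to day 10 (median -0.23). Among all measured genes 8.25% rose and 7.1% fell in the first of these comparisons, and 17.1% and 15.8% in the other. PRODH, which starts proline breakdown and feeds ALDH4A1, was at 30.9, 59 and 66.5 CPM and rose 2.15-fold [1.89 to 2.46] over the whole interval. OAT, which links ornithine to the same intermediate, rose 2.16-fold [2.04 to 2.28], from 181.1 to 390.3 CPM. ARG1, an arginase that makes ornithine, went from 8 fragments to 19 and 290. PYCR1, which reduces the intermediate to proline, was at 9.91, 16.1 and 8.19 CPM. It was highest on day 6, as ALDH18A1 was, but no step reached 2-fold. SLC1A5, a glutamine transporter, fell 6.43-fold [5.26 to 7.93] from day 4 to day 10.

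ALDH6A1, the methylmalonate semialdehyde dehydrogenase at the end of valine breakdown, had the largest fold of the 9 members over the whole interval. It had 45, 188 and 355 fragments on days 4, 6 and 10, or 4.13, 15.6 and 33.4 CPM. It rose 3.78-fold [2.72 to 5.35] to day 6 and 2.14-fold [1.79 to 2.57] from there, in all 8.10-fold [5.93 to 11.3]. Only 2.12% of measured genes had a larger difference from day 4 to day 10. The second step was close to the 2-fold line (1.05) and its call was lost with a pseudocount of 5 (0.90) and with the highest coding sequence (0.98). Its fragments were shared between 2 coding sequences, at 23.5 and 21.5 on day 4 and 196 and 159 on day 10; as shared fragments are divided between them, these are not separate values.

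Genes of valine and other branched-chain amino acid breakdown were counted as a list of 26, with 24 measured. Of these 5 rose and 1 fell by day 6, 4 rose and 1 fell from day 6 to day 10, and 12 rose and 2 fell from day 4 to day 10 (median 1.06). The shares of all measured genes that rose and fell were 8.06% and 6.73%, 8.25% and 7.1%, and 17.1% and 15.8%. HIBCH and HIBADH, which carry out the valine steps just before ALDH6A1, rose 4.80-fold [4.25 to 5.43] and 2.79-fold [2.35 to 3.31] over the whole interval, to 142.7 and 48.3 CPM. PPM1K, the phosphatase that activates the branched-chain ketoacid dehydrogenase, went from 5 fragments to 35 and 88. HSD17B10, an isoleucine pathway enzyme that also belongs to mitochondrial RNase P, fell 3.75-fold [3.29 to 4.28], and the cytosolic transaminase BCAT1 fell 2.70-fold [1.70 to 4.40], to 26 fragments.

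**Figure D4:**
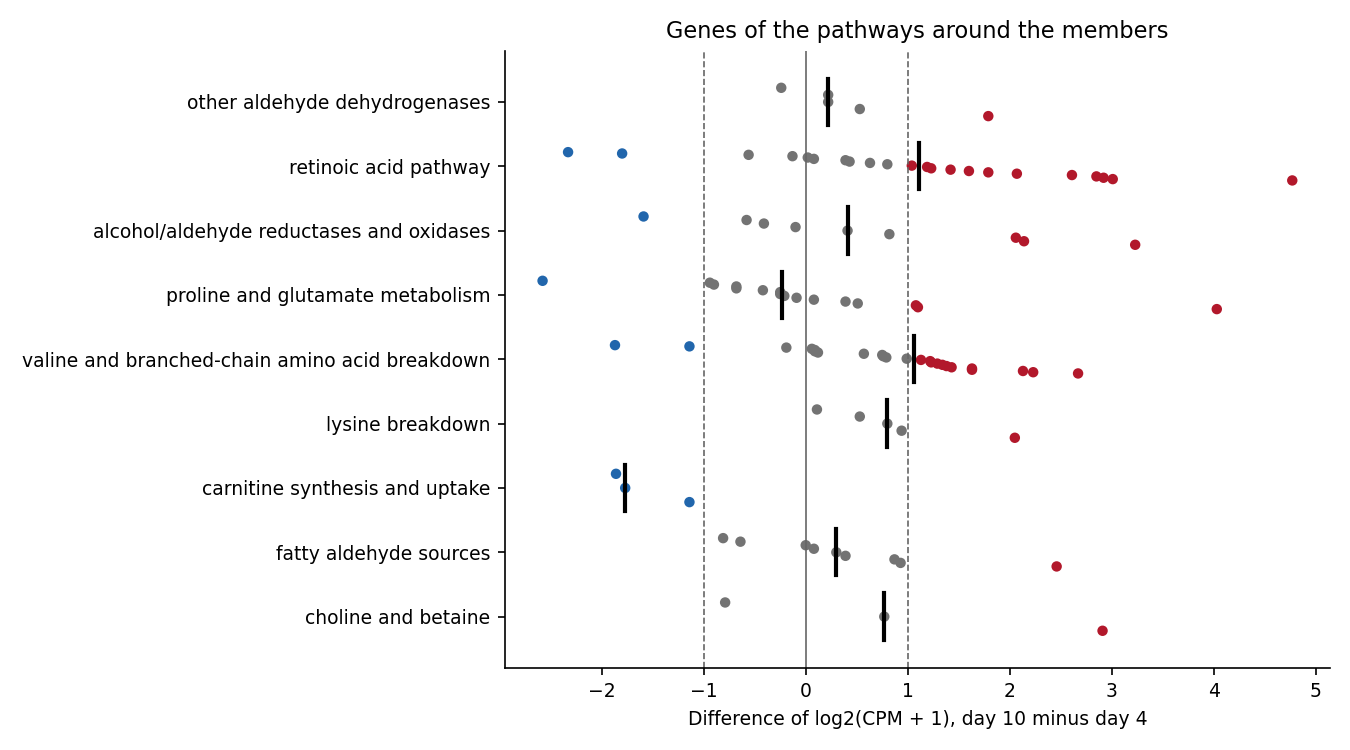
Difference of log2(CPM + 1) between day 10 and day 4 for the measured genes of the 9 lists around the members; each point is a gene (red rose, blue fell, grey neither), the black bar is the list median and the dashed lines mark 2-fold. The retinoic acid list (median 1.11) and the branched-chain list (median 1.06) have 12 risers each, of 22 and 24 measured genes. The proline and glutamate list has a median of -0.23. Of all measured genes 17.1% rose and 15.8% fell.

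ALDH7A1, which acts in lysine breakdown and in betaine synthesis, was at 97.3, 147 and 74.5 CPM on days 4, 6 and 10. The day 6 library was the highest. It stood 1.51-fold higher [1.40 to 1.63] on day 6 than on day 4 and then 1.97-fold lower [1.81 to 2.15] on day 10 than on day 6, a difference of -0.97 that falls just short of the threshold. Of 5 measured genes of lysine breakdown 1 rose and 0 fell from day 4 to day 10 (median 0.80): AASS, which opens the pathway, went from 27 fragments to 70 and 142, a rise of 5.40-fold [3.56 to 8.48]. Of 3 measured genes of choline and betaine 1 rose from day 4 to day 10, the choline transporter gene SLC44A2, 7.75-fold [6.87 to 8.78], from 27.4 to 212.8 CPM. Both lists can be read against 17.1% of all measured genes that rose and 15.8% that fell over that interval.

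ALDH9A1, which makes the precursor of carnitine and also oxidizes other amino aldehydes, was at 49.6, 78 and 80.3 CPM. It was 1.58-fold higher [1.42 to 1.75] on day 6 than on day 4 and 1.03-fold [0.937 to 1.13] the day 6 level on day 10, an interval that includes no difference. The 3 measured genes of the carnitine list all fell from day 4 to day 10 (median -1.77), where 15.8% of all measured genes fell. TMLHE, the first enzyme of that route, went from 54 fragments to 20 and 18. The other 2 were SHMT1 and SHMT2, down 3.73-fold [2.91 to 4.82] and 3.68-fold [3.36 to 4.05], which are better known as the serine hydroxymethyltransferases of folate metabolism. BBOX1, which completes carnitine, had 3 fragments or fewer in every library.

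Another 5 family genes were measured outside the list of 10. Besides ALDH1A2, given above, ALDH16A1 was at 31.6, 44.5 and 45.9 CPM and ALDH5A1, the succinate semialdehyde dehydrogenase, at 6.15, 9.21 and 7.35 CPM. ALDH1L2, the mitochondrial 10-formyltetrahydrofolate dehydrogenase, rose 2.38-fold [1.88 to 3.02] to day 6 and fell 2.86-fold [2.22 to 3.72] after it. ALDH1L1, its cytosolic counterpart, had 9, 39 and 12 fragments. ALDH1B1 and ALDH8A1 were listed with 0 fragments in all 3 libraries. ALDH3A1 and ALDH3B2 are not among the gene names, so their levels could not be set against those of the members.

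The genes whose profiles over the 3 libraries lay closest to a member were found as the smallest Euclidean distance between centred log2(CPM + 1) values, among 8309 named genes with at least 10 CPM in some library. For ALDH1A1 they were UBA7, DENND4C and CALCOCO2, at distances of 0.015, 0.027 and 0.037, and 17 genes lay within 0.1. For ALDH6A1 they were AMACR, FILIP1L and HERC6, at 0.027, 0.051 and 0.065. For ALDH4A1 they were EIF4EBP1, EXOSC4 and NCAPH, at 0.028, 0.047 and 0.063. A profile has only 3 points, so the distances are a description of these libraries.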

How the data were processed

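RNA of 3 rabbit corneal epithelial cultures was sequenced, with 1 library per stage, from total RNA prepared with Trizol and an Illumina TruSeq RNA kit, per the labels' protocols. For each of 38696 coding sequences the authors deposited expected counts of fragments and of reads, many of them fractional, per the file headers. The deposited tables also hold a coverage signal per transcript and RPKM, neither of them used, and the authors' FPKM and TPM values. The submitters' processing notes name the build OryCun2.0. For the aligner, the counter and strand use the entry is: not given in the sources used here. Overlapping or antisense genes can thus not be told apart.

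Fragments were summed per gene name, rounded and scaled with TMM factors of 1.071, 0.958 and 0.974 (edgeR 4.0.16, R 4.3.3); DESeq2 1.42.0 gave alternative size factors. Intervals were computed with scipy 1.17.1, and the scripts were tested on simulated data. The floor for a library with 0 fragments is 3 fragments (0.275, 0.249 and 0.283 CPM on days 4, 6 and 10). Of 5185 names starting with LOC, 671 took a symbol from the RefSeq gene table of mOryCun1.1, which was used for names only.

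The members and lists were chosen with earlier results of these data known. The naming rule took all members, up to 2 risers and 2 fallers of each list from day 4 to day 10, and 3 profile neighbours of each member that changed over that interval; other list genes were named after their values were seen.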

Additional observations from a re-analysis of the deposited data

How the results depend on the processing

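No paired analysis was possible because each stage has 1 library. Of 189 member differences recomputed under 7 alternatives (27 differences each), 165 moved by less than their counting error, 24 moved by more, and 0 of the called ones changed direction; among those not called, ALDH4A1 from day 4 to day 6 was at -0.15 with TPM, a scale that put the all-gene median at -0.30. At a 1.5-fold threshold 5 members were called from day 4 to day 6 and 7 from day 4 to day 10, against 2 and 3 at 2-fold; 37.6% and 56.6% of all genes were called at 1.5-fold. At a 4-fold threshold 0 were called in either single step, where 1.85% and 1.93% of all genes were. With a pseudocount of 5, 3 members were called from day 6 to day 10, against 5, while the share of all genes called was 7.91% against 15.4%. Without TMM or with TPM, 1 member rose and 1 fell from day 4 to day 6 (2 and 0 in the report), and 2 rose and 2 fell from day 4 to day 10 (2 and 1); these scalings moved the median of all genes by -0.11 to -0.31 in these comparisons. Leaving out ALDH1A1, the share of all TPM was 0.0256% on day 4, 0.0253% on day 6 and 0.0158% on day 10. FPKM gave the same order of the 9 members as TPM in each library. ALDH1A3 and ALDH6A1 rest on the fewest fragments, 36 and 45 in their lowest libraries, and differences between cultures of 1 stage cannot be measured here.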
